A study of Mus musculus with 16 samples.

Results

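TRAV segments encode the variable part of the T cell receptor alpha (TRA) chain. Their families and duplicated copies were followed here in mouse CD8+CD44+ T cells, that is CD8 T cells bearing a surface marker of antigen experience. The members are all productive, full-length TRA contigs whose V segment is named TRAV, grouped by the number after TRAV. They came to 1771 of 4545 contigs in skin, with 86 segments of 19 families in 1606 cell barcodes, and to 3416 of 9927 contigs in lymph node, with 90 segments of 20 families in 2993 cell barcodes. The cells were from C57BL/6 mice of 16 weeks that had melanoma-associated vitiligo (a patchy depigmentation of immune origin), 45 days after tumor surgery. They were taken from vitiligo-affected skin, digested with collagenase and DNase, and from the tumor-draining lymph node, dissociated mechanically. All animals had the disease, so there was no healthy group. The sources used here do not say how many mice contributed.

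The series has 16 samples, which are 4 libraries of 4 lanes each, and lanes of a library share its cells. Each tissue is therefore 1 receptor library. No test between tissues was possible, and every 95% interval below covers counting error only, not differences between mice. A TRA contig rested on a median of 3.0 UMIs (unique molecular identifiers, each standing for 1 captured RNA molecule) in either tissue, and 18.1% of the contigs in skin and 13.1% in lymph node rested on 1 UMI. The 2 receptor tables had 12 barcodes in common, and 0 of these carried the same CDR3 in both.

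Each TRA chain joins 1 TRAV segment to 1 TRAJ segment, and the bases around the join form the CDR3, the loop that contacts the peptide. In mice the TRAV genes lie upstream of the TRAJ genes on chromosome 14. The first rearrangements of a locus use TRAV genes near the TRAJ cluster with TRAJ genes at its upstream, high-numbered end, and later ones replace them with more distant TRAV genes and low-numbered TRAJ genes. In C57BL/6 mice a stretch of TRAV genes has been duplicated, and its copies carry the letter D or N after the family number, whereas the other copies carry no letter. Copies that share family and number, such as TRAV12-2, TRAV12D-2 and TRAV12N-2, are called a copy set below.

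The reference annotation (GENCODE M21, build mm10) places 108 functional Trav genes on the plus strand of chromosome 14, in 4 blocks. From 5′ to 3′ these are 7 genes without a letter at positions 52427928 to 52667864, 34 D copies at 52683964 to 53079045, 28 N copies at 53091346 to 53370575, and 39 genes without a letter at 53390635 to 53977678. The TRAJ cluster follows at 54157280 to 54217901, and the constant gene Trac at 54220521 to 54224206. Contigs named 90 of the 108 genes, and 0 of the 20 annotated V pseudogenes.

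How far a copy can be recognised was measured over 240 bases of the V exon, ending 10 bases before the end of the annotated transcript. A D or N copy differed from the unlettered copy of its set by a median of 6 bases over 56 pairs, and 5 pairs were identical. A D copy and the N copy of the same set were identical in 16 of 27 pairs. Of the 28 N copies, the 12 that differed from every D copy all had contigs. The 16 that were identical to a D copy had contigs in 1 case only, TRAV6N-7. Of the 18 genes with no contig, 15 were such identical N copies. Contigs named D therefore cannot be told apart from N in these sets, whereas D or N against no letter can be in most, and the copies are mostly pooled in that way below.

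The V exons of the TRAV12-2 set, the copy set with most clones, are shown because the copy share, the TRAJ use and the transcripts described below all turn on these few bases. Capitals mark the 9 bases at which the D copy and the unlettered copy differ. The first gene lies at chr14:52915799-52916426 and the second at chr14:53616315-53616914, both on the plus strand of mm10, and the 240 bases printed are exonic. The N copy, at chr14:53226773-53227400, has the same 240 bases as the D copy.
Trav12d-2: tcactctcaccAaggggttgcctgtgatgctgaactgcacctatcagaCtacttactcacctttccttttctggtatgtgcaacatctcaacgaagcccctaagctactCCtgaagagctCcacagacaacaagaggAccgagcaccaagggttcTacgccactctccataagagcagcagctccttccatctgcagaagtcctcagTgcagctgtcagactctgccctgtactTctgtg
Trav12-2: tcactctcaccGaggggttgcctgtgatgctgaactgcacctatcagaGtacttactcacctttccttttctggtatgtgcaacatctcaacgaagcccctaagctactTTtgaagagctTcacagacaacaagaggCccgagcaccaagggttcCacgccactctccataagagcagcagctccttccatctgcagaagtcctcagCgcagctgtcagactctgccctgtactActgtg

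The TRA CDR3 of the largest skin clone of each of the 5 families with most skin clones is shown next, to set the joined segments and the added bases of expanded chains before the counts. A clone is a set of cells with identical TRA and TRB CDR3 nucleotides. Capitals mark bases matched to neither the germline V nor the germline J segment.
TRAV6-7-DV9 with TRAJ39, paired with TRBV29, 20 skin cells and 0 lymph node cells: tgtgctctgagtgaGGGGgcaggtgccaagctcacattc
TRAV12-3 with TRAJ40, paired with TRBV10, 9 skin cells and 0 lymph node cells: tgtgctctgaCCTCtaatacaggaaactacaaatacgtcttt
TRAV7-5 with TRAJ47, paired with TRBV3, 17 skin cells and 0 lymph node cells: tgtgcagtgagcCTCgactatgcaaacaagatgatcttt
TRAV3-3 with TRAJ40, paired with TRBV14, 4 skin cells and 0 lymph node cells: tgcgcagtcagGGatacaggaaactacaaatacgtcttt
TRAV14-3 with TRAJ45, paired with TRBV3, 88 skin cells and 3 lymph node cells: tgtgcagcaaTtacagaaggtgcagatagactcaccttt
The top clone of TRAV14 was the largest of all, and its TRA chain has 1 base outside the germline segments. All 5 chains use an unlettered V copy.

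The first comparison asked which TRAV families the clones of each tissue use. Cells that held a single TRB and at most 2 TRA sequences gave 1322 cells in 701 clones in skin and 2548 cells in 2486 clones in lymph node. Of the skin clones 183 held 2 or more cells, against 59 of the lymph node clones. The same 7 families led in both tissues, with TRAV6 first in skin and TRAV12 first in lymph node.

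TRAV12 held 94 skin clones (13.4%, 95% interval 11 to 16.2) and 395 lymph node clones (15.9%, 14.5 to 17.4), a skin over lymph node ratio of 0.844 (0.667 to 1.06). TRAV6 held 105 skin clones (15%, 12.4 to 17.8) and 281 lymph node clones (11.3%, 10.1 to 12.6), a ratio of 1.33 (1.05 to 1.66). TRAV7 held 75 skin clones (10.7%) and 281 lymph node clones (11.3%), a ratio of 0.947 (0.724 to 1.23). The interval of TRAV6 lies above 1 and those of TRAV12 and TRAV7 include it. Counted by TRA CDR3 and V segment without the TRB chain, the TRAV6 ratio was 1.16 (0.93 to 1.43), and that interval includes 1.

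TRAV3 held 69 skin clones (9.84%) and 200 lymph node clones (8.05%), a ratio of 1.22 (0.917 to 1.62). TRAV14 held 62 skin clones (8.84%) and 225 lymph node clones (9.05%), a ratio of 0.977 (0.725 to 1.30). TRAV13 held 61 skin clones (8.70%, 6.72 to 11) and 289 lymph node clones (11.6%, 10.4 to 13.0), a ratio of 0.749 (0.558 to 0.99). TRAV13 was thus lower in skin, with an interval that only just leaves out 1, and from contigs of at least 3 UMIs alone the ratio was 0.686 with an interval that includes it (0.448 to 1.02).

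**Figure D1:**
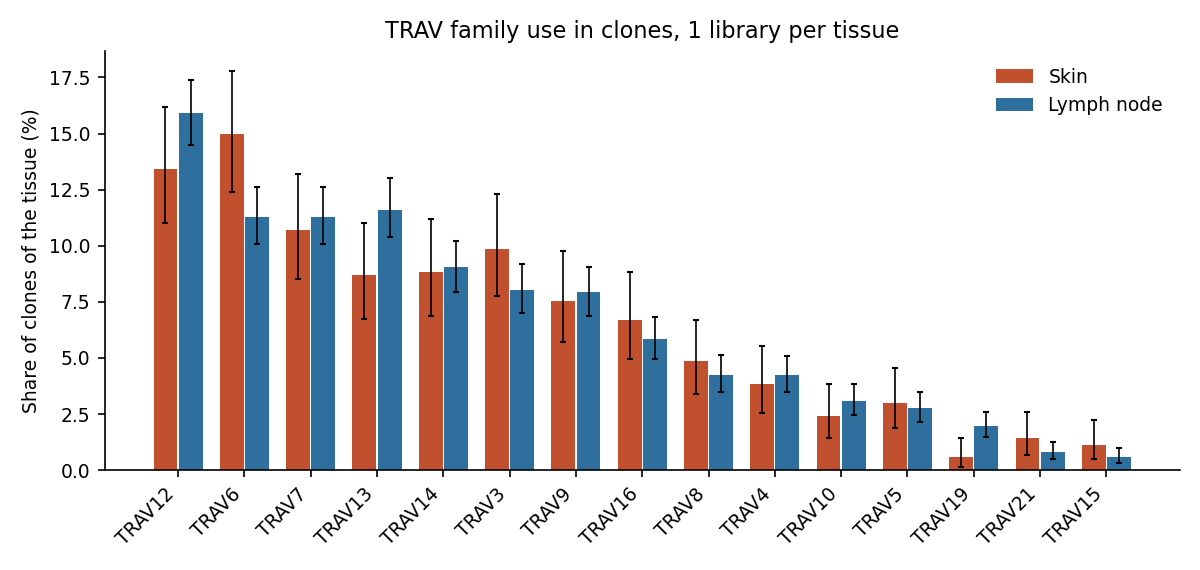
Share of clones (%, vertical axis) of each TRAV family with at least 20 clones over both tissues, in skin (left bar of each pair) and lymph node (right bar), with exact 95% intervals of counting error. The same 7 families lead in both tissues in a different order, TRAV6 stands at 15% in skin and 11.3% in lymph node, and TRAV19 at 0.571% in skin and 1.97% in lymph node.

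Among families with at least 30 clones over both tissues, the highest ratios belonged to TRAV21, TRAV6 and TRAV3 and the lowest to TRAV19, TRAV13 and TRAV10. TRAV21, a single-gene family that can also serve in delta chains, held 10 skin clones (1.43%) and 20 lymph node clones (0.805%), a ratio of 1.77 (0.741 to 3.97). TRAV19, also a single-gene family, held 4 skin clones (0.571%) and 49 lymph node clones (1.97%), a ratio of 0.289 (0.0759 to 0.790). TRAV10, whose 3 copies include a D and an N copy, held 17 skin clones (2.43%) and 77 lymph node clones (3.10%), a ratio of 0.783 (0.434 to 1.34). Of these, TRAV19 was the family farthest from 1, and it lies close to TRAV21 in the locus, the genes being 375 kb (TRAV19) and 344 kb (TRAV21) upstream of Trac.

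The other families with at least 20 clones lay closer to 1 or were small. TRAV9 held 53 skin and 197 lymph node clones (ratio 0.954), TRAV16 47 and 145 (1.15), TRAV8 34 and 106 (1.14), TRAV4 27 and 105 (0.912), TRAV5 21 and 69 (1.08), and TRAV15 8 and 15 (1.89, 0.694 to 4.75). TRAV1, TRAV2, TRAV11, TRAV17 and TRAV18 had at most 5 skin clones and at most 11 lymph node clones each.

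Past 1.5-fold in either direction were 3 of the 15 families with at least 20 clones, or 20%, and TRAV19 was the only one of these whose interval left out 1. Of single segments with at least 20 clones, 19 of 51 were past 1.5-fold, or 37.3%, with 7 higher and 12 lower in skin. For comparison, 6 of 20 TRBV segments (30%) and 8 of 42 TRAJ segments (19.0%) were. A ratio past 1.5 was thus no rarer among TRAV segments than among the other segments, but the fold takes no account of the number of clones per segment. Of the segments past it, the interval left out 1 for 5 of the 51 TRAV, 5 of the 20 TRBV and 1 of the 42 TRAJ segments tested. In simulated clones with equal shares in both tissues, 26.6% of TRAV segments were past 1.5-fold.

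In 5 of the 19 TRAV segments the interval left out 1, and these are named after their values were seen. TRAV6N-7 held 23 skin clones (3.28%) and 42 lymph node clones (1.69%), a ratio of 1.94 (1.11 to 3.30). TRAV14-2 held 17 skin clones and 30 lymph node clones, a ratio of 2.01 (1.04 to 3.76). TRAV12-2 held 21 skin clones (3.00%) and 136 lymph node clones (5.47%), a ratio of 0.548 (0.328 to 0.871). TRAV14-1 held 2 skin clones and 32 lymph node clones, a ratio of 0.222 (0.0257 to 0.869). The last of the 5 was TRAV19. Copies of 1 family, TRAV14-1 and TRAV14-2, lay on opposite sides of 1, while the family as a whole had the ratio 0.977.

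Counting cells gave another picture, because skin clones were of unequal size and cells of 1 clone are not independent. TRAV6 made up 16.8% of cells in skin and 11.2% in lymph node (ratio 1.5, 1.25 to 1.79), and 33 of its 105 skin clones held 2 or more cells, the largest 20. TRAV5 made up 6.05% of cells in skin and 2.83% in lymph node (ratio 2.14, 1.54 to 2.99), although its share of clones hardly differed. Its largest clones held 23 and 15 of its 80 skin cells, and the TRAV5 ratio without these clones was not computed. TRAV14 made up 13.2% of cells in skin and 9.14% in lymph node (ratio 1.44, 1.18 to 1.76). Without its clone of 88 cells the TRAV14 ratio was 0.762 (0.588 to 0.980), on the other side of 1, so this 1 clone sets the direction for TRAV14.

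TRAV12 made up 10.5% of cells in skin and 15.8% in lymph node (ratio 0.665, 0.544 to 0.808), and its largest skin clone held 9 cells. TRAV4 made up 2.42% of cells in skin and 4.12% in lymph node (ratio 0.587), with 3 of 27 skin clones of 2 or more cells. TRAV13 kept about the same ratio in cells, 0.736, as in clones. TRAV3, higher in skin by clones, was at 7.26% of cells in skin and 8.12% in lymph node, a ratio of 0.894, and its largest skin clone held only 4 cells.

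Clones found in both tissues numbered 31, with 231 skin cells and 40 lymph node cells, and all 31 had the same V segment in both. TRAV7 held 6 of them, TRAV6 and TRAV16 4 each, TRAV3, TRAV5 and TRAV13 3 each, TRAV8, TRAV9 and TRAV14 2 each, and TRAV11 and TRAV12 1 each. TRAV12, first in the lymph node by clones, thus had 1 clone in both tissues.

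The second comparison asked how much of the repertoire uses the duplicated copies. D or N copies made up 350 of 701 skin clones (49.9%, 46.2 to 53.7) and 1145 of 2486 lymph node clones (46.1%, 44.1 to 48.0), a ratio of 1.08 (0.959 to 1.22). By the name of the contig, D copies were at 34.8% in skin and 33.9% in lymph node, and N copies at 15.1% in skin and 12.2% in lymph node. Where the copies are identical this name does not separate D from N. The duplicated part thus gave close to as many clones as the genes without a letter in both tissues, and the interval of the ratio includes 1.

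In cells, D or N copies were at 42.5% in skin (39.8 to 45.2) and 46.0% in lymph node (44.1 to 48.0). The skin value was lower in cells than in clones, and the 5 largest-clone sequences printed above all lie in unlettered copies. Of the 1322 skin cells, 88 were of the 1 clone with the unlettered TRAV14-3, and the share without this clone was not computed. The lower skin value in cells can therefore not be read as a general shift over clones.

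Within copy sets the share ranged widely. In the TRAV12-2 set, D or N copies made up 23 of 44 skin clones (52.3%, 36.7 to 67.5) and 58 of 194 lymph node clones (29.9%, 23.5 to 36.9). In the TRAV3-3 set they made up 41 of 54 skin clones (75.9%, 62.4 to 86.5) and 107 of 165 lymph node clones (64.8%, 57.0 to 72.1). In the TRAV16 set, the whole TRAV16 family, they made up 63.8% of skin clones and 67.6% of lymph node clones. The TRAV12-2 set had the widest gap of these sets, and even there the intervals overlap slightly.

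In the TRAV12-3 set D or N copies made up 77.4% of skin clones and 83.2% of lymph node clones, and in the TRAV13-1 set 32.1% of skin clones and 28.5% of lymph node clones. The unlettered TRAV12-2 and TRAV12-3 lie close together in the locus. The lymph node used mainly the unlettered copy of the first and mainly a D or N copy of the second.

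**Figure D2:**
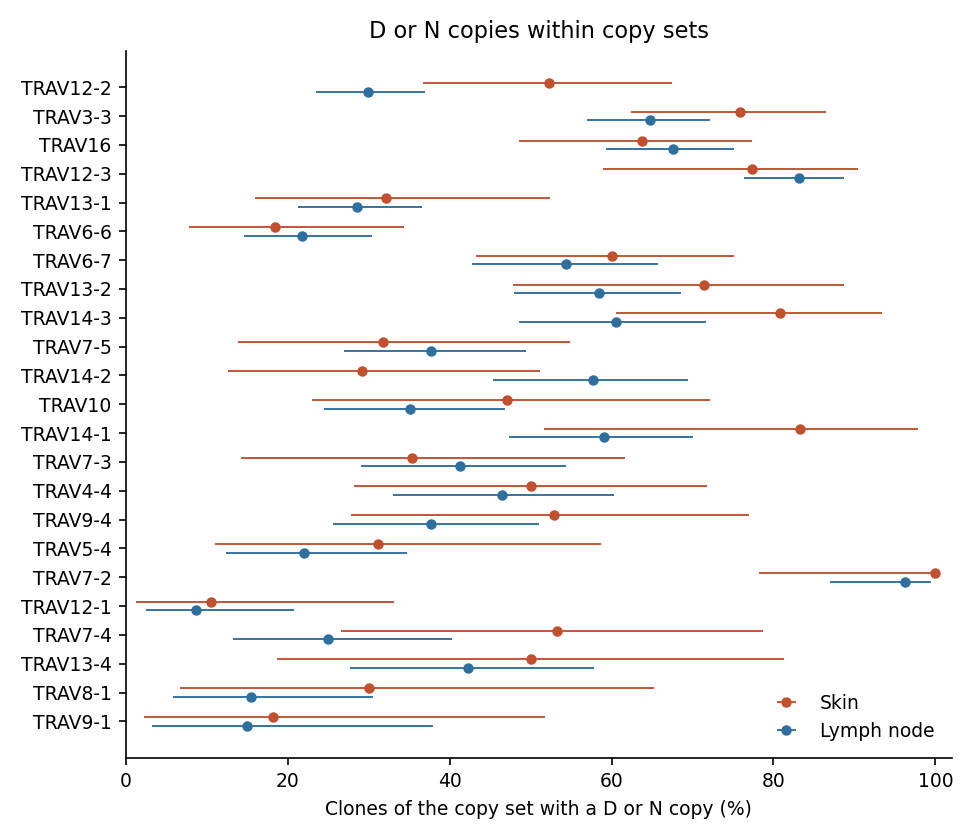
Share of clones (%, horizontal axis) of each copy set that used a D or N copy, in skin (upper point) and lymph node (lower point), with exact 95% intervals, for the 23 sets that have both kinds of copy and at least 10 clones in each tissue. Sets run from under 20% to over 90%, and most skin and lymph node intervals overlap.

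The third comparison set the copies against the TRAJ segment they were joined to. Clones with D or N copies used lower TRAJ numbers, nearer to the constant gene, than clones with unlettered copies, in both tissues. In skin the median TRAJ number was 23 (interval 22 to 23) with D or N copies and 34 (33 to 39) with unlettered copies. In lymph node it was 23 (22 to 23) with D or N copies and 37 (35 to 39) with unlettered copies.

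The unlettered genes were not uniform, and they split by where they lie. In skin the median was 24.5 for the unlettered genes 5′ of the D block, 22 for D copies, 26 for N copies and 37 for the unlettered genes 3′ of the N block. In lymph node the same blocks had medians of 24, 23, 23 and 39. The D and N blocks go by the name of the contig, which does not separate D from N where the copies are identical. The genes 5′ of the D block, though without a letter, thus had medians like those of the D and N copies.

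TRAJ numbers of 40 or more, the upstream end of the TRAJ cluster, were used by 46.4% of skin clones (40.8 to 52.0) and 48.3% of lymph node clones (45.5 to 51.1) with the 3′ genes. With copies named D the shares were 11.1% in skin and 11.6% in lymph node, and with copies named N 10.4% in skin and 17.2% in lymph node. With the 5′ genes they were 5.88% in skin and 6.02% in lymph node. The intervals of the 3′ genes do not overlap those of any other block in either tissue.

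**Figure D3:**
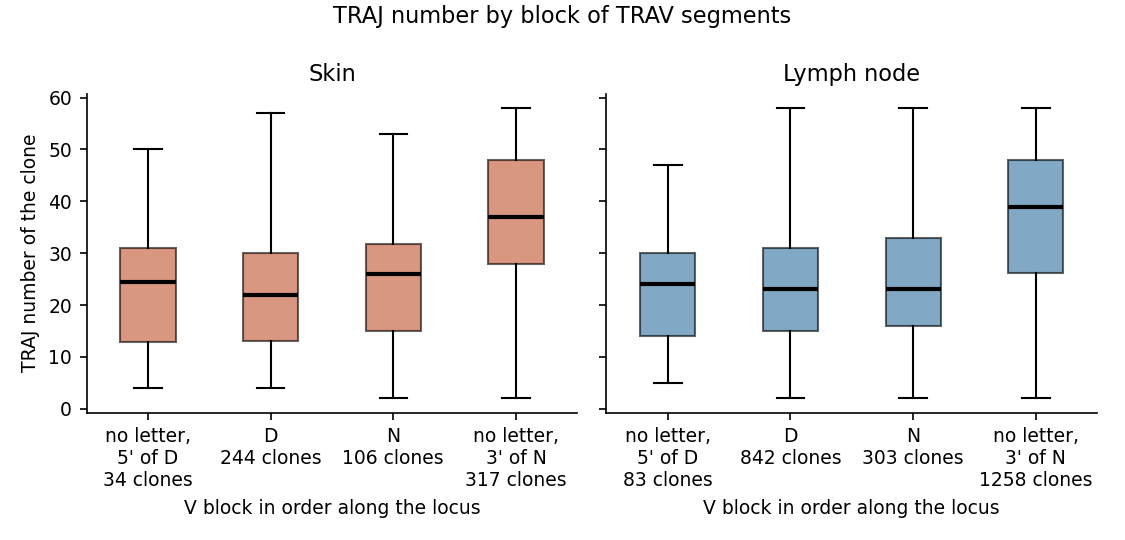
TRAJ number of the clones (vertical axis) by block of TRAV genes in their order along the locus, in skin (left panel) and lymph node (right panel). Boxes span the quartiles with the median as a line, and whiskers reach the lowest and highest value; the medians are 24.5, 22, 26 and 37 in skin and 24, 23, 23 and 39 in lymph node.

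The same held within most copy sets. Among sets with at least 5 clones of either kind, D or N copies had the lower median TRAJ number in 17 of 18 sets in skin and in 20 of 24 sets in lymph node. The median difference between D or N and unlettered copies was -13.0 TRAJ numbers in skin and -12.5 in lymph node. In the TRAV12-2 set the medians in skin were 22 for D or N copies and 32 for the unlettered copy. In lymph node they were 21 for D or N copies and 39 for the unlettered copy.

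In the TRAV14-3 set they were 26 for D or N copies and 48 for the unlettered copy in skin, and 22 for D or N copies and 49 for the unlettered copy in lymph node. The exception in skin was TRAV7-4, at 27 for D or N copies and 23 for the unlettered copy. In lymph node the exceptions were TRAV7-4, at 32 for D or N copies and 31 for the unlettered copy, and TRAV7-5, TRAV8-1 and TRAV6-4, where both medians were equal.

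Segment by segment, the median TRAJ number went down with the distance of the named V gene from Trac. Contigs named D were placed at the D gene, also where the D and N copies are identical, so these distances are uncertain. Trav12d-3, for example, lies 1290 kb from Trac and its identical N copy 979 kb. Over segments with at least 10 clones, Spearman's rho was -0.856 in skin (26 segments) and -0.797 in lymph node (64 segments), given as a description since segments of 1 tissue share its library. Over single clones rho was -0.489 in skin (701 clones) and -0.480 in lymph node (2486 clones). The relation was not a straight line: from the N block outwards the medians lay mostly between 20 and 30, and they climbed only across the 3′ block.

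**Figure D4:**
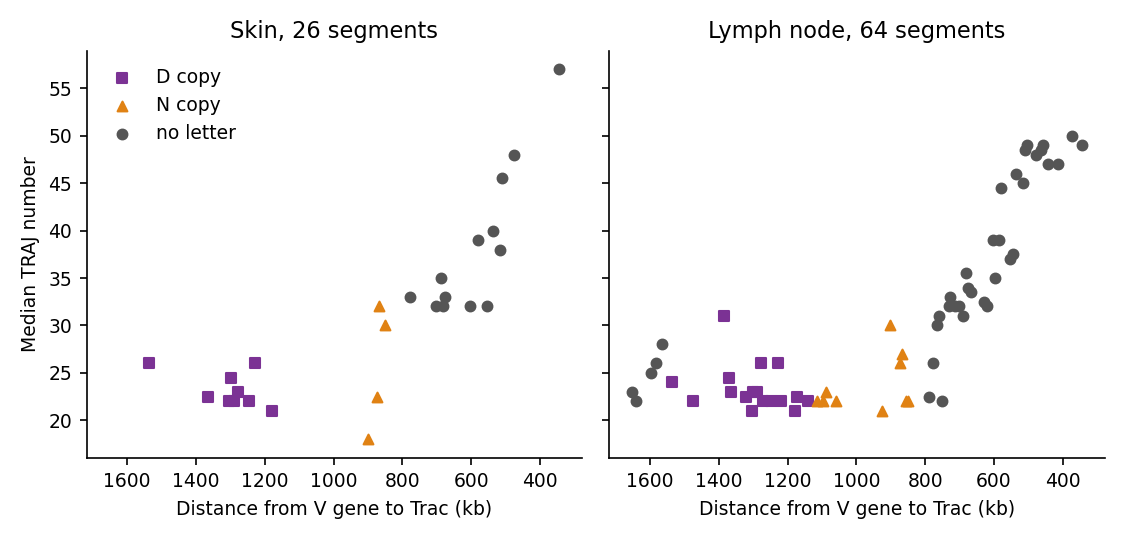
Median TRAJ number (vertical axis) of each TRAV segment with at least 10 clones against the distance of its gene from Trac in kb (horizontal axis, near the constant gene at the right), in skin (left panel, 26 segments) and lymph node (right panel, 64 segments). D copies (squares) and N copies (triangles) lie low at long distances, and the unlettered genes (circles) climb at short distances. Contigs named D are drawn at the D gene, also where an N copy is identical.

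By family, the highest medians in lymph node among families of at least 30 lymph node clones were those of TRAV19, at 50, TRAV5, at 39, and TRAV4 and TRAV16, both at 32. TRAV21, with 20 lymph node clones and so below that minimum, had a median of 49. The lowest were those of TRAV8, at 22, and TRAV9 and TRAV14, both at 26. The skin values for the same families were 57.5 for TRAV19 (4 clones only), 30 for TRAV5, 38 for TRAV4, 39 for TRAV16, 21 for TRAV8, 27 for TRAV9 and 30 for TRAV14. In TRAV16 the unlettered gene had a median of 48 in both tissues, so that the family value depends on the copies it is made of.

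Some V and J families met more often than their own frequencies would give; the number expected is the product of both shares in the tissue. In lymph node TRAV14 with TRAJ22 had 46 clones against 19.5 expected (ratio 2.36, 1.73 to 3.15), and TRAV12 with TRAJ23 had 31 against 17.3 (1.79, 1.22 to 2.54). Of the 46 clones, 18 carried 1 and the same TRA CDR3, printed further on. In skin TRAV12 with TRAJ22 had 14 clones against 5.77 expected (2.43, 1.33 to 4.07), TRAV6 with TRAJ11 8 against 1.65 (4.86, 2.10 to 9.57) and TRAV8 with TRAJ21 8 against 1.12 (7.17, 3.10 to 14.1). In lymph node TRAV12 with TRAJ22 had 23 clones against 34.2 expected (0.673, 0.427 to 1.01), an interval that includes 1. These pairs were named after their values were seen. Higher ratios, on fewer clones, were those of TRAV19 in lymph node. It had 7 clones with TRAJ58 against 0.650 expected (10.8, 4.33 to 22.2) and 9 with TRAJ56 against 0.848 (10.6, 4.86 to 20.2). In skin TRAV4 with TRAJ40 had 7 against 0.924 (7.57, 3.04 to 15.6). The expected number takes no account of the V gene's position, and no share of all V and J pairs past a fold was counted.

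The invariant chains of unconventional T cells were looked for by their segments. TRAV11 with TRAJ18, the chain of invariant natural killer T cells, was found in 0 of 1771 skin contigs and 0 of 3416 lymph node contigs, which allows a share of up to 0.169% in skin and 0.0878% in lymph node. TRAV1 with TRAJ33, the chain of mucosal-associated invariant T cells, was also found in 0 contigs of either tissue, with the same limits. The limits hold for the sorted CD8+CD44+ cells and not for all T cells of a tissue. TRAV11 itself had 12 contigs in skin and 8 in lymph node, and TRAV1 had 7 in skin and 14 in lymph node.

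The fourth comparison set TRAV families against the TRBV segment of the beta chain in the same cell. TRAV6 with TRBV19 had the most clones in skin, 25 against 13.5 expected (ratio 1.85, 1.20 to 2.74), and in lymph node it had 24 against 15.9 (1.51, 0.965 to 2.24). TRAV13 with TRBV19 had 17 skin clones against 7.83 expected (2.17, 1.26 to 3.48) and 19 lymph node clones against 16.4 (1.16, 0.698 to 1.81). As a share of clones, TRAV6 with TRBV19 was 3.69 times as frequent in skin as in lymph node (2.02 to 6.76) and TRAV13 with TRBV19 3.17 times (1.55 to 6.45). TRBV19 as a whole made up 12.8% of clones in skin and 5.67% in lymph node, a ratio of 2.26 (1.72 to 2.97). From contigs of at least 3 UMIs alone, TRAV6 with TRBV19 in skin was 1.38 times its expected number, with an interval that includes 1 (0.686 to 2.46).

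Seen from the beta chain, TRAV6 made up 27.8% of the 90 skin clones with TRBV19 (18.9 to 38.2) and 13.1% of the other skin clones, against 17.0% of the 141 lymph node clones with TRBV19 and 11% of the others. TRAV13 made up 18.9% of the skin clones with TRBV19 and 7.20% of the other skin clones, against 13.5% with TRBV19 and 11.5% of the others in lymph node. With all TRBV19 clones left out, the skin over lymph node ratio of TRAV6 was 1.19 (0.918 to 1.54), that of TRAV13 was 0.625 (0.444 to 0.863) and that of TRAV19 was 0.163 (0.0192 to 0.624). The interval of TRAV6 then includes 1, while TRAV13 and TRAV19 lie farther below 1.

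Of the 25 skin clones of TRAV6 with TRBV19, 10 used TRAV6N-7 and 8 used TRAV6-6, with 22 and 21 cells, and 5 other segments made up the rest. The 24 lymph node clones of this pair used 9 segments, TRAV6N-7 in 7 clones and TRAV6-6 in 5. Of the 17 skin clones of TRAV13 with TRBV19, 11 used TRAV13-1, with 51 of the pair's 59 skin cells, and of the 19 lymph node clones 9 used it. The 25 skin TRAV6 clones used 13 TRAJ segments and the 17 TRAV13 clones used 12, so neither pair was a single rearrangement.

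The next pairs in skin were TRAV12 with TRBV10, TRAV3 with TRBV13-3 and TRAV6 with TRBV29. TRAV12 with TRBV10 had 12 skin clones (2.03, 1.05 to 3.55) and 12 lymph node clones (0.629, 0.325 to 1.10), where the values in parentheses are the ratio to the expected number. TRAV3 with TRBV13-3 had 11 skin clones (2.54, 1.27 to 4.54) and 12 lymph node clones (0.921, 0.476 to 1.61). TRAV6 with TRBV29 had 10 skin clones (1.48) and 21 lymph node clones (1.45), and both intervals include 1. The lymph node intervals of the TRAV12 and TRAV3 pairs also include 1, as did that of the TRAV3 pair in skin from contigs of at least 3 UMIs (1.74, 0.475 to 4.46).

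The pairs with most lymph node clones were led by TRAV12. TRAV12 with TRBV12-2+TRBV13-2, a call that names both TRBV segments, had 8 skin and 34 lymph node clones, TRAV12 with TRBV13-3 had 7 and 33, and TRAV12 with TRBV12-1 had 4 and 32. Their lymph node ratios were 0.914, 1.28 and 1.04, with intervals that include 1. TRAV9 with TRBV12-2 had 2 skin clones and 33 lymph node clones against 17.0 expected (1.95, 1.34 to 2.73), and TRAV13 with TRBV12-2 had 0 skin clones and 32 lymph node clones (1.29).

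The highest lymph node ratios among pairs of at least 10 clones were TRAV4 with TRBV10 (0.590 in skin, 2.17 in lymph node), TRAV13 with TRBV31 (1.11 in skin, 2.15 in lymph node), TRAV3 with TRBV2 (1.02 in skin, 2.14 in lymph node), TRAV16 with TRBV13-1 (2.18 in skin, 2.09 in lymph node) and TRAV12 with TRBV26 (1.55 in skin, 2.03 in lymph node). The skin values rest on 1 to 6 clones and their intervals include 1. From contigs of at least 3 UMIs the lymph node intervals of the first 3 of these pairs included 1 as well. Of all pairs expected at least 5 times, 12 of 30 in skin (40.0%) and 54 of 173 in lymph node (31.2%) were past 1.5-fold of the expected number. The interval left out 1 for 4 pairs in skin and 13 in lymph node. Named pairs of this set are read against these shares. Pairs expected fewer times, such as TRAV3 with TRBV13-3 in skin (4.33) and TRAV3 with TRBV2 in lymph node (4.67), lie outside it.

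The copy named by a contig was checked in 2 ways. Within a clone the V call never varied: 0 of 183 skin clones and 0 of 59 lymph node clones of 2 or more cells held several V segments, which allows up to 1.64% in skin and 5.08% in lymph node. The sources used here do not say whether the deposited calls were made cell by cell or shared over a clone. Grouped by TRA CDR3 nucleotides alone, 11 of 251 sequences in skin (4.38%, 2.21 to 7.71) and 56 of 222 in lymph node (25.2%, 19.7 to 31.5) had several V segments. In 7 of the 11 in skin and 32 of the 56 in lymph node, a D or N copy and an unlettered copy shared the CDR3.

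Clones that shared their TRA sequence with another clone more often lacked added bases. TRA sequences found in 2 or more clones numbered 36 of 652 in skin (5.52%) and 90 of 2352 in lymph node (3.83%). In lymph node, 47.8% of clones with such a chain had 0 bases outside the germline segments, against 13.4% of clones whose chain was in 1 clone, and in skin the shares were 28.2% and 13.5%. A shared chain counts once per clone here, so these clones are not independent. For example, 1 chain was in 18 lymph node clones and another in 7 skin clones. Shares by sequence were not computed. In skin 23 of the 36 sequences were in a clone of 2 or more cells, and in lymph node 5 of the 90 were.

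The chains with most TRB partners differ in the copies they use, and are shown because 1 CDR3 came from 6 copies in the first and from 1 copy in the second. Neither has a base outside the germline segments.
TRAV14 with TRAJ22: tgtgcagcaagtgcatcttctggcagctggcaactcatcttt
TRAV8D-2 with TRAJ21: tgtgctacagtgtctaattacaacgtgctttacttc
The first was in 1 skin clone and 18 lymph node clones with 19 TRB partners, and its V segment was called TRAV14D-2 in 8 clones, TRAV14N-3 in 4, TRAV14-2, TRAV14-3 and TRAV14D-1 in 2 each and TRAV14D-3-DV8 in 1. The second was in 7 skin clones of 26 cells and in 2 lymph node clones of 2 cells. Of its skin clones, 2 held 9 cells each and both used TRBV14, but with different TRBJ segments, TRBJ2-4 and TRBJ2-7, and 4 held 1 cell each. This chain accounts for 7 of the 8 skin clones of TRAV8 with TRAJ21 counted above.

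The lymph node gene table gave a check that does not use the contigs. It lists 34 Trav genes, of which 3 are D copies, 5 are N copies and 26 have no letter. It was joined by barcode to 2085 lymph node cells with exactly 1 TRA sequence, at a median of 4547 UMIs per cell. Skin RNA was not analysed here. Of the fixed CD8 T cell markers, Cd3d, Cd3e, Cd3g, Cd8a and Cd8b1 had a UMI in 84.9% to 98.1% of these cells, and Trac in 58.8%. Of the markers of other cells, Cd40lg (CD4 T cells) had one in 2.40%, Trgv2 (gamma-delta T cells) in 2.21%, Cd79b in 10.1% and Ighm in 49.1% (B cells); their part in the results was not tested. Cxcr6 and Il18r1, listed for the invariant T cells but also expressed by activated CD8 T cells, had one in 39.2% and 30%.

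Cells with a contig of a listed segment mostly had a transcript of that gene. Over the 34 genes, 1062 of 1123 such cells (94.6%, 93.1 to 95.8) had at least 1 UMI of the gene named by their contig. The other shares count pairs of a cell and a gene, so 1 cell enters several times. Where the contig named another copy of the gene's set, 52 of 1239 pairs (4.20%, 3.15 to 5.47) had a UMI. Where it named another family, 646 of 64877 pairs did (0.996%, 0.921 to 1.08), which is taken as the background per gene. By cell such UMIs were more common. Of 982 cells with UMIs of exactly 1 Trav gene, it was the called segment in 73.8% and a gene of another family in 21.3%. These include cells whose called segment was not listed. Trav12n-3 and Trav6-7-dv9 had UMIs in the most cells of another copy and are set aside here for that reason. Without them, another copy of the set gave 9 of 1058 pairs (0.851%, 0.390 to 1.61). Genes picked by this outcome lower the share by construction, so 4.20% stays the value for the listed genes as a whole.

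The set printed above is an example of UMIs that follow the contig. Trav12-2 had a UMI in 121 of 123 cells with a TRAV12-2 contig (98.4%, 94.2 to 99.8) and in 0 of 45 cells with a TRAV12D-2 contig (up to 7.87%), although these V exons differ by 9 of 240 bases. Trav16, Trav16d-dv11 and Trav16n differ from each other by 2 to 5 bases. Trav16n had a UMI in 52 of 54 cells with a TRAV16N contig, 0 of 27 with TRAV16D-DV11 and 0 of 46 with TRAV16. Trav16 had one in 43 of 46 cells with its own contig, 2 of 27 with TRAV16D-DV11 (7.41%, 0.910 to 24.3) and 0 of 54 with TRAV16N. Trav16d-dv11 had one in 23 of 27 cells with its own contig and in 0 of the 100 others of the set. In the TRAV8-2 set, whose copies differ by 22 bases, Trav8d-2 had one in 32 of 33 TRAV8D-2 cells and 0 of 18 TRAV8N-2 cells, and Trav8n-2 in 18 of 18 TRAV8N-2 cells and 1 of 33 TRAV8D-2 cells.

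**Figure D5:**
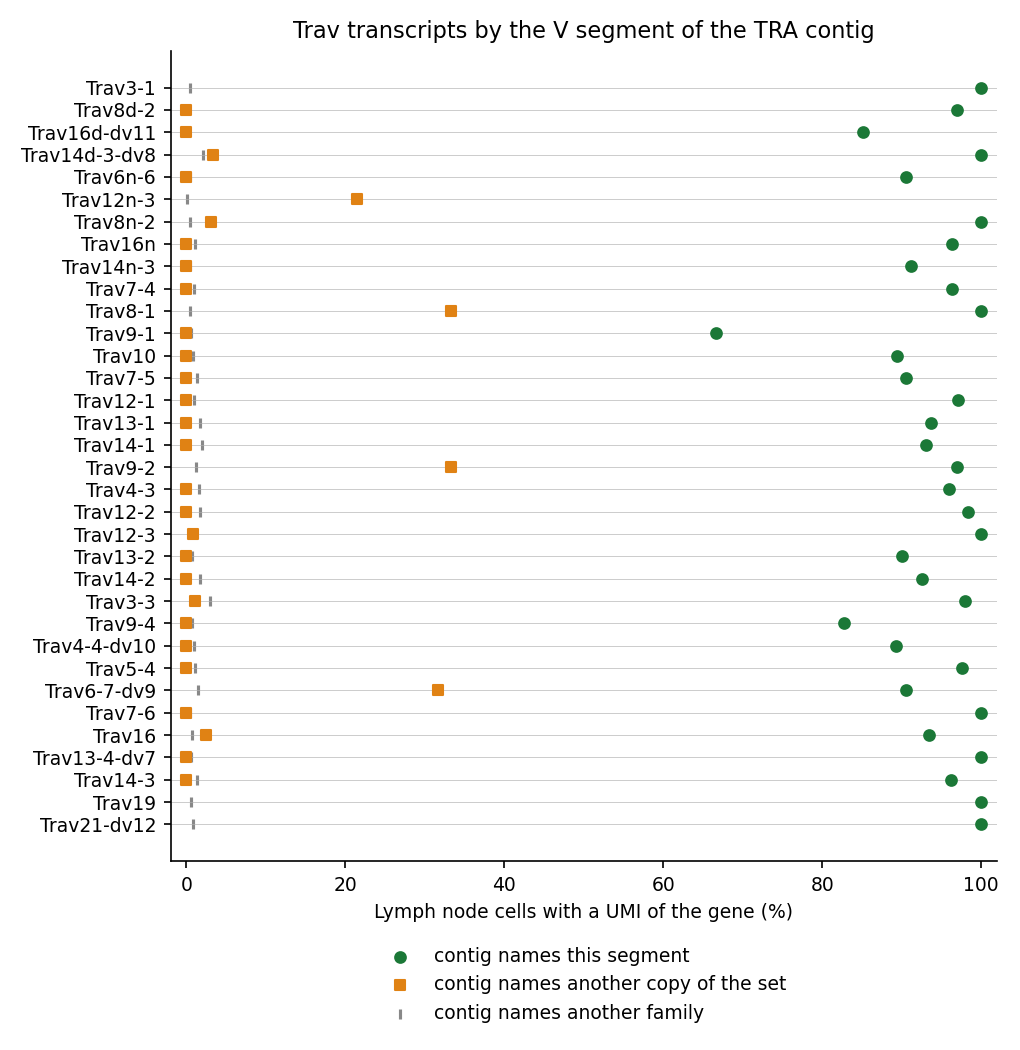
Share of lymph node cells (%, horizontal axis) with at least 1 UMI of each of the 34 Trav genes of the gene table (vertical axis, in file order), for cells whose contig names the gene's own segment (circles), another copy of its set (squares) or another family (bars). Own-segment shares run from 66.7% to 100%, and the squares lie near 0 except for Trav12n-3, Trav6-7-dv9, Trav8-1 and Trav9-2, the last 2 with only 3 cells each.

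Both genes set aside had UMIs in cells of another copy of their set. Trav12n-3, an N copy that no contig named, had a UMI in 30 of 120 cells with a TRAV12D-3 contig (25%, 17.5 to 33.7) and in 0 of 20 with TRAV12-3; its 240 bases equal those of the D copy. Trav6-7-dv9 had one in 29 of 32 cells with its own contig and in 13 of 40 with a TRAV6N-7 contig (32.5%, 18.6 to 49.1), from which it differs by 5 bases.

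For D copies the gene table was nearly silent. Of the 32 D segments called in these cells 3 were listed, and a UMI of the called gene was found in 63 of the 683 cells with a D call, in 120 of 251 with an N call and in 879 of 1151 with an unlettered call. Of the cells whose called gene is listed, these were 63 of 68 with a D call, 120 of 127 with an N call and 879 of 928 with an unlettered call. Cells with a D call had about as many UMIs in all, a median of 4403 against 4628 with an unlettered call, and Trac in 58.3% against 60.2%. Of cells whose called segment was not listed, 28.4% had a UMI of any Trav gene and 4.89% of a listed copy of the same set, against 96.3% and 94.6% where it was listed.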

How the data were processed

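Receptor libraries of sorted CD8+CD44+ T cells, 1 from skin and 1 from tumor-draining lymph node, and the lymph node gene table were used. The receptor tables deposited by the authors list assembled contigs with their UMI counts per contig, with 4 lanes pooled, per the file headers; the gene table deposited by the authors holds raw UMI counts per gene and cell. Bowtie, RSEM and mm10 appear in the submitters' processing notes, without versions or roles. The sources used here do not name the tool that called V segments, and the naming of near-identical copies depends on it.

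Kept contigs were productive, full-length and of high confidence. For TRA these were 1771 of 2198 contigs in skin and 3416 of 4288 in lymph node. Every productive, full-length TRAV contig was also of high confidence. Each cell with 1 TRB and at most 2 TRA CDR3 sequences was given its best-supported TRA and TRB contig by UMIs. Barcodes with 2 or more TRB or 3 or more TRA sequences were left out of the clones, and no doublet caller was run. Shares carry exact Clopper-Pearson 95% intervals, ratios of shares an exact conditional interval, pair counts an exact Poisson interval and medians a binomial order-statistic interval. A limit for a count of 0 used 3 counts. UMIs and cells of a clone are not independent, so all intervals cover counting error only. No p-value was computed, since each tissue is 1 library.

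V exons were compared over 240 bases of GENCODE M21 transcripts with edlib 1.3.9. Other steps used Python 3.11.15, pandas 2.3.3, SciPy 1.17.1 and matplotlib 3.10.9, and were tested on simulated data. All 34 Trav genes of the gene table were used.

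Named were the 5 families with most clones per tissue, the 3 highest and 3 lowest ratios among families of at least 30 clones, the 5 largest copy sets, the 3 highest and lowest TRAJ medians, and the 5 leading pairs per tissue with the 5 highest lymph node ratios. The members, lists and rules were chosen with earlier results of these data known. Alternatives were other units (cells, all contigs, TRA alone), contigs of at least 3 UMIs, clones of both tissues or the largest skin clone left out, other clone minimums and folds, and, added after seeing the data, TRBV19 clones left out.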

Additional observations from a re-analysis of the deposited data

Results flagged for a closer look

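The receptor tables also hold contigs that join a delta V segment (TRDV) to a TRAJ segment, which no comparison above used. They numbered 26 in skin and 40 in lymph node, 0 of them productive. All 26 in skin were TRDV1 with TRAJ57 and had 1 CDR3 sequence; of the 17 of their barcodes with a clone, 16 belonged to 1 clone with TRAV7-5, which held 17 cells. The 40 in lymph node had 34 CDR3 sequences and TRAJ numbers from 7 to 58, with a median of 49, and 24 of them used TRDV1. They are given because no comparison used them and each number is above the 3 counts taken as the limit of a count of 0; there were no control samples to set them against.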

How the results depend on the processing

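No paired analysis was possible because no result comes from a test. Over the 28 main results, 92 alternative values were computed; 70 stayed within the main value's interval, or within 1.5 times the main count, and 22 did not. The TRAV14 ratio of cells was 0.762 without the largest skin clone against 1.44, on the other side of 1. Counting cells or all TRA contigs in place of clones gave 0.894 or 0.880 for the TRAV3 ratio, also on the other side of 1 from 1.22, whose interval includes 1, and 42.5% or 42.8% for D or N copies in skin. Contigs of at least 3 UMIs gave 0.0802 for the TRAV19 ratio of cells and 33.7% of lymph node CDR3 sequences with several V segments. They also gave UMIs of the called gene in 96.7% of cells and of another family in 1.11% of pairs of a cell and a gene. Grouping by clone gave 0% in skin and 0% in lymph node for several V segments. The mean TRAJ number of D or N copies was 23.5 in skin and 24.4 in lymph node, and the median of unlettered copies over skin cells was 40. Asking for 2 UMIs of the gene gave 69.6% of cells for the called segment, and 0.404% of pairs for another copy and 0.194% for another family. With a minimum of 10 clones, 29 of 70 TRAV segments were past the fold (41.4%), and with 50 clones 7 of 21 (33.3%). The main count was 19 of 51 (37.3%), so the minimum changed the number tested far more than the share. At 2-fold 6 of 51 segments were past it (11.8%). Of TRAV families, 1 of 13 was past the fold with a minimum of 50 clones and 1 of 15 at 2-fold, against 3 of 15. The cause of each was not tested. The 45 alternative values of the named pairs all lay within the main interval, but at 3 UMIs the intervals of 5 pairs came to include 1: 1.38 for TRAV6 with TRBV19 and 1.74 for TRAV3 with TRBV13-3 in skin, and 2.20 for TRAV4 with TRBV10, 1.88 for TRAV13 with TRBV31 and 1.69 for TRAV3 with TRBV2 in lymph node. By clones, so did those of TRAV6 by TRA alone (1.16) or without TRBV19 (1.19) and of TRAV13 at 3 UMIs (0.686), while that of TRAV10 (0.783) came to leave out 1 by cells (0.561) and by all contigs (0.679). With 1 library per tissue, differences between tissues cannot be told apart from differences between libraries or their dissociation.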

Other observations

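The TRA CDR3 had a median length of 15 codons for TRAV16 in skin and in lymph node, 12 in skin and 13 in lymph node for TRAV8, and 13 in both for TRAV4 and TRAV13. TRAV11, with 2 skin clones and 3 lymph node clones, had the longest median, 17 codons in both.

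Bases outside the germline segments numbered a median of 2.0 over skin clones and 3.0 over lymph node clones, and 15.3% of skin clones and 16.5% of lymph node clones had 0. With D or N copies the share with 0 was 17.1% in skin and 17.2% in lymph node, and with unlettered copies 13.4% in skin and 15.8% in lymph node; the intervals overlap. Clones of 2 or more cells had 0 such bases in 12.6% of cases in skin and 10.2% in lymph node, against 16.2% of 1-cell clones in skin and 16.6% in lymph node, again with overlapping intervals.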
